A study of Mus musculus with 6 samples.

Results

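The genes described here are 10 genes of bone morphogenetic protein (BMP) signalling and the Id family in mouse fibroblasts, chosen by name: the ligand gene Bmp4, the receptor genes Bmpr1a and Bmpr2, the signal transducer genes Smad1 and Smad5, the inhibitor genes Smad6 and Grem1, and the target genes Id1, Id2 and Id3. All 10 were found among the 55401 genes of the expression table. RNA was sequenced from NIH-3T3, an established line of mouse embryonic fibroblasts, and from a derivative of it whose genotype is labelled as a mutation. The unmutated line (WT) and the derivative (MU) each gave 3 libraries. Both were grown in the same serum-containing medium with no named treatment. Neither the gene nor the allele that was mutated is labelled, nor whether MU is 1 clone, so an effect of the mutation and any other difference that separates the lines cannot be told apart. The series title concerns mitochondrial translation infidelity and cell cycle arrest, and the labels state no question about BMP signalling.

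BMPs are secreted ligands of the TGF-beta superfamily. They bring type I and type II receptor kinases together at the cell surface, and the type I receptor then phosphorylates SMAD1 and SMAD5, which enter the nucleus with SMAD4. The Id genes are classic direct targets of this pathway. Id proteins have a helix-loop-helix domain but no DNA-binding region, and they hold E proteins such as those encoded by Tcf3, Tcf4 and Tcf12 away from DNA. Id genes also respond to serum and other growth signals, so their mRNA is not a specific readout of BMP.

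Promoter windows were read from RefSeq (GRCm38.p6), where 9 of the 10 genes had an entry and Id1 had none. The 250 bases before each RefSeq start site were searched on both strands for GGCGCC and GGAGCC, GC-rich sequences that BMP-activated SMADs are known to bind. The sites of Id2 and Id3, which rose in MU, and of Smad6, a feedback target of the pathway, are shown as 30 bases each on the gene's own strand, with the matched letters in capitals. The Id3 match is the complement of GGAGCC.
Id2, chr12:25096306-25096335, minus strand: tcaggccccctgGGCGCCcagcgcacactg
Id2, chr12:25096163-25096192, minus strand: gtatgatggacgGGAGCCcttccaccaatg
Id3, chr4:136143623-136143652, plus strand: cctcgcatccgaGGCTCCgctgtcctcggc
Smad6, chr9:64022144-64022173, minus strand: accagccccctcGGAGCCtcgggctcagca
Smad6, chr9:64022060-64022089, minus strand: aatcagcgccgcGGAGCCgccaaagtgtct
The Id2 and Id3 sites lie before the RefSeq start but inside the gene as GENCODE annotates it: 1 of 3 Id2 transcripts has the site at 25096163 in an untranslated exon and the other site in an intron, and 1 of 3 Id3 transcripts has its site in an untranslated exon. Both Smad6 sites lie outside the annotated gene. Both motifs were chosen after the windows were seen. GGCGCC was present in 9.59% and GGAGCC in 26.0% of the 32851 windows in the table, and 31.7% held either. Among the 11 windows of the 9 genes (Smad5 has 3) 9 held either sequence, and all 11 were GC-rich, at 60.0% to 78.8%. The windows with a match included those of Bmpr1a, Bmpr2, Smad6, Bmp4 and Grem1 and some of Smad5, genes which did not pass or were not tested. A match is a description of the sequence only.

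In the MU cells the mRNAs of Id1, Id2 and Id3 were 1.90 to 2.94 times as abundant as in WT, while no BMP receptor or SMAD gene among the 10 passed the test. The ligand Bmp4 and the antagonist Grem1 were close to 0 in every library of both groups. Of the 10 genes, 8 reached a TPM (abundance scaled to transcript length and library total) of 1 in at least 3 libraries and were tested, 3 passed as higher and 0 as lower (limma, Benjamini-Hochberg adjusted p under 0.05 over 14209 genes). The shares over all tested genes were 7.12% higher and 11.6% lower, together 18.8%. The 10 genes were chosen with earlier results of these data known, so these shares are no test of the set. Without adjustment 4 of the 8 were higher and 1 was lower at a p under 0.05 (limma), where 13.2% and 20.1% of all tested genes were. The authors' deposited table (DESeq2) has 3 of the 10 higher and 1, Smad1, lower at an adjusted p under 0.05, where 9.42% and 11.6% of its 17009 genes were. Values of the groups did not overlap for 4 genes that were higher (Id1, Id2, Id3 and Smad6) and 1 that was lower (Smad1), against 16.1% and 23% of all tested genes (39.2% in either direction).

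**Figure D1:**
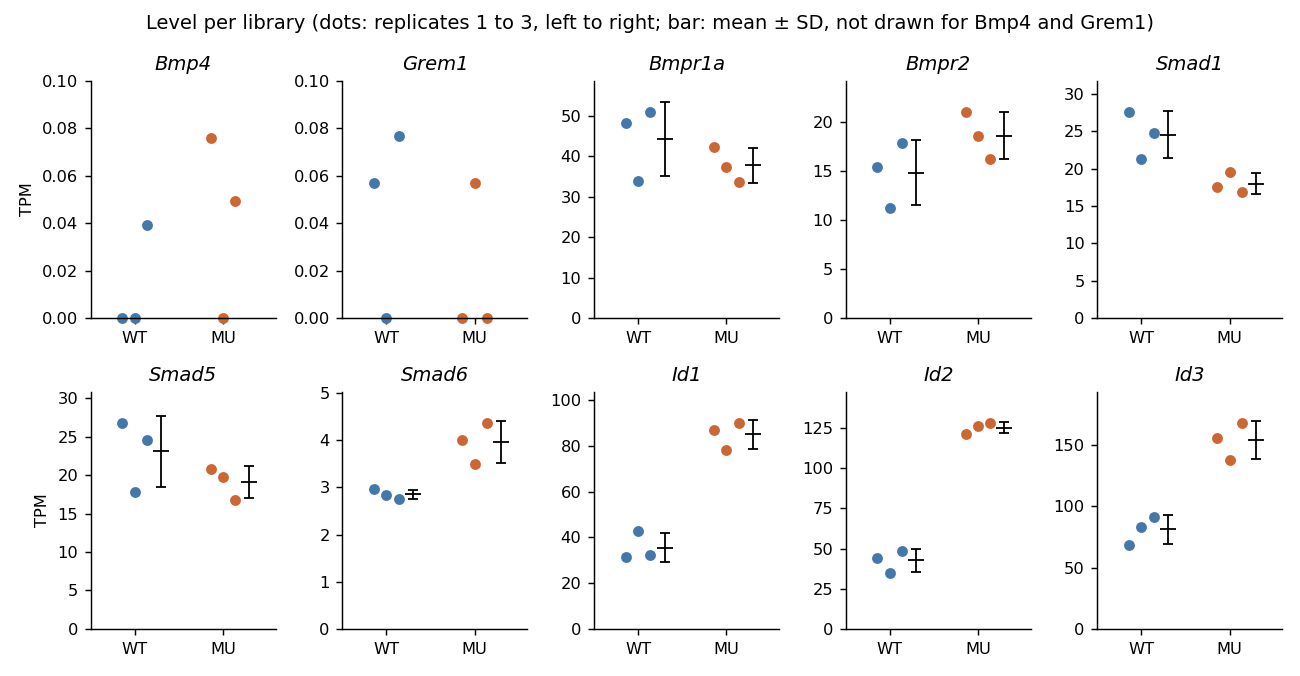
Level in TPM (y axis, each panel from 0) of the 10 genes in the 3 WT (blue) and 3 MU (orange) libraries, with replicates 1 to 3 from left to right in each group and the mean ± SD beside them (not drawn for Bmp4 and Grem1, which are listed at 0 in some libraries). The MU points of Id1, Id2 and Id3 all lie above 78.0 TPM and above every WT point of the same gene, and Bmp4 and Grem1 stay below 0.08 TPM.

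Depth is unknown because TPM keeps no read counts. Pearson correlations of log2(TPM + 1) across genes were 0.949 to 0.966 within WT, 0.971 to 0.976 within MU and 0.937 to 0.945 across the groups. Deviations from the group mean followed GC content to unequal degrees, with Spearman correlations across genes from −0.37 in WT replicate 3 to 0.45 in WT replicate 2. Of 10 tested fibroblast markers 5 rose and 0 fell, where 7.12% and 11.6% of all tested genes did. Those that rose were Col1a1, Col1a2, Col5a1, Thy1 and Fn1, by 0.54 to 1.34 on the log2 scale (limma). The 12 listed markers summed to 8617 to 9903 TPM in WT and 11220 to 11732 TPM in MU. Vim stood at 3303 to 4544 TPM and Pdgfra at 56.8 to 65.4 TPM over the 6 libraries, while Fap stayed below 0.6 TPM in each and Lum was at 0.812 to 1.68 TPM in WT and at most 0.162 TPM in MU. The 8 adipocyte markers summed to at most 0.470 TPM in any library. Summed levels of the 8 leukocyte markers were 4.78 to 5.50 TPM in WT and 10.2 to 12.6 TPM in MU, of the 8 skeletal muscle markers 0.363 to 0.435 and 2.08 to 2.60 TPM, of the 8 osteoblast markers 881 to 1101 and 459 to 488 TPM, and of the 7 chondrocyte markers 60.3 to 75.2 and 21.5 to 24.0 TPM. The osteoblast sum was nearly all Spp1 (1003 ± 115 and 469 ± 13.7 TPM) and the chondrocyte sum nearly all Sox9 (67.9 ± 7.48 and 22.5 ± 1.08 TPM). The leukocyte-defining gene Ptprc stayed below 0.3 TPM, the muscle-defining genes Myod1 and Myog were listed at 0, Sp7, a defining gene of osteoblasts, stayed below 0.11 TPM, and the cartilage collagen gene Col2a1 was at or below 0.31 TPM. The 8 endothelial markers summed to 2.29 to 3.48 TPM in WT and 0.817 to 1.48 TPM in MU. The 8 epithelial ones summed to 0.790 to 1.54 and 1.60 to 2.31 TPM. Csf1r, a leukocyte marker, rose from 1.87 ± 0.109 to 5.34 ± 0.848 TPM (limma adjusted p = 0.00528). Ttn, a muscle marker, rose from 0.0857 ± 0.0455 to 1.30 ± 0.237 TPM (limma adjusted p = 0.017). Cdh5, an endothelial marker, fell from 1.82 ± 0.861 to 0.105 ± 0.0118 TPM (limma adjusted p = 0.0186). The part of these differences in the results below was not tested.

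Id2 (ENSMUSG00000020644.9, a protein-coding gene on chromosome 12, 25093799 to 25097140, minus strand, GRCm38) rose the most of the 10 genes. Its levels were 44.4, 34.8 and 48.6 TPM in WT replicates 1 to 3 and 122, 126 and 128 TPM in MU replicates 1 to 3. The MU libraries lay within 7 TPM of each other and far above the highest WT library. The mean went from 42.6 ± 7.07 to 125 ± 3.51 TPM (SD, n = 3), a difference of 1.55 on the log2(TPM + 1) scale (SE 0.13, 95% interval 1.24 to 1.86, limma adjusted p = 0.0011). In bulk RNA, more cells with an mRNA and more of it per cell cannot be told apart.

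Id1 (ENSMUSG00000042745.9, chromosome 2, 152736251 to 152737410, plus strand) is the Id gene most often used to report BMP activity. It stood at 31.4, 42.7 and 32.3 TPM in WT and at 87.0, 78.1 and 90.2 TPM in MU. WT replicate 2 was the highest WT library for Id1 and the lowest for Id2, and no WT value came near the MU values. The log2 difference of Id1 was 1.25 (SE 0.14, 95% interval 0.92 to 1.58, limma adjusted p = 0.0025), from 35.5 ± 6.31 to 85.1 ± 6.29 TPM.

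Id3 (ENSMUSG00000007872.3, chromosome 4, 136143497 to 136145755, plus strand) was the most abundant of the 10 genes in every library. Its levels were 68.8, 83.1 and 91.6 TPM in WT and 156, 138 and 168 TPM in MU. The lowest MU library lay above the highest WT library. The mean went from 81.2 ± 11.5 to 154 ± 15.2 TPM, a log2 difference of 0.92 (SE 0.13, 95% interval 0.61 to 1.24, limma adjusted p = 0.0058). Id4, the remaining family member, stayed at 0.689 to 1.18 TPM in the 6 libraries and was not tested.

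Together the 3 Id mRNAs amounted to 145, 161 and 173 TPM in WT and 364, 342 and 387 TPM in MU. Their order was Id3, Id2, Id1 in all 3 MU libraries, with no overlap between the genes there. In WT, Id3 was again highest, but Id1 and Id2 overlapped, with Id1 at 31.4 to 42.7 TPM and Id2 at 34.8 to 48.6 TPM. Id2 contributed 26.9% ± 4.66 of the sum in WT and 34.5% ± 2.07 in MU, and Id3 50.8% ± 2.86 and 42.2% ± 1.66. The ratio of Id2 to Id3 was 0.645, 0.419 and 0.531 in WT and 0.779, 0.913 and 0.763 in MU. That of Id1 to Id3 was 0.456, 0.514 and 0.353 in WT and 0.558, 0.565 and 0.536 in MU. Each had a two-sided exact permutation p of 0.1 (0.117 adjusted over the 7 ratios computed), and 0.1 is the smallest p that 3 against 3 libraries can give, so the unequal rise is not shown by this test. For Id2 to Id1 the groups overlapped (exact permutation p = 0.5, 0.5 adjusted).

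The E-protein genes, whose products Id proteins bind, did not pass. Tcf3 averaged 129 ± 16.3 TPM across WT and 121 ± 7.52 TPM across MU libraries (log2 difference −0.09, 95% interval −0.36 to 0.18, limma adjusted p = 0.632). Tcf4 was at 38.7 ± 4.46 and 35.5 ± 1.03 TPM (adjusted p = 0.512, limma), and Tcf12 at 47.2 ± 3.92 and 53.4 ± 1.21 TPM (adjusted p = 0.219, limma). The summed Id1, Id2 and Id3 level over the summed Tcf3, Tcf4 and Tcf12 level was 0.656, 0.704 and 0.881 in WT and 1.77, 1.66 and 1.79 in MU (exact permutation p = 0.1, 0.117 adjusted). There was thus less Id than E-protein mRNA in each WT library and more in each MU library, on a per-length scale. Of 6 tested E-protein and related factor genes, 1 fell and 0 rose, where 11.6% and 7.12% of all tested genes did. The gene that fell was Twist2, a mesenchymal helix-loop-helix factor, at 74.1 to 77.8 TPM in WT and 45.2 to 50.4 TPM in MU. Its log2 difference was −0.69 (SE 0.08, limma adjusted p = 0.00332). None rose at an unadjusted p under 0.05 in limma. The authors' deposited table has Tcf12 higher at an unadjusted p of 0.0326 (adjusted 0.121). Twist1 was at 50.9 ± 6.09 and 39.3 ± 3.91 TPM (adjusted p = 0.0814, limma).

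**Figure D2:**
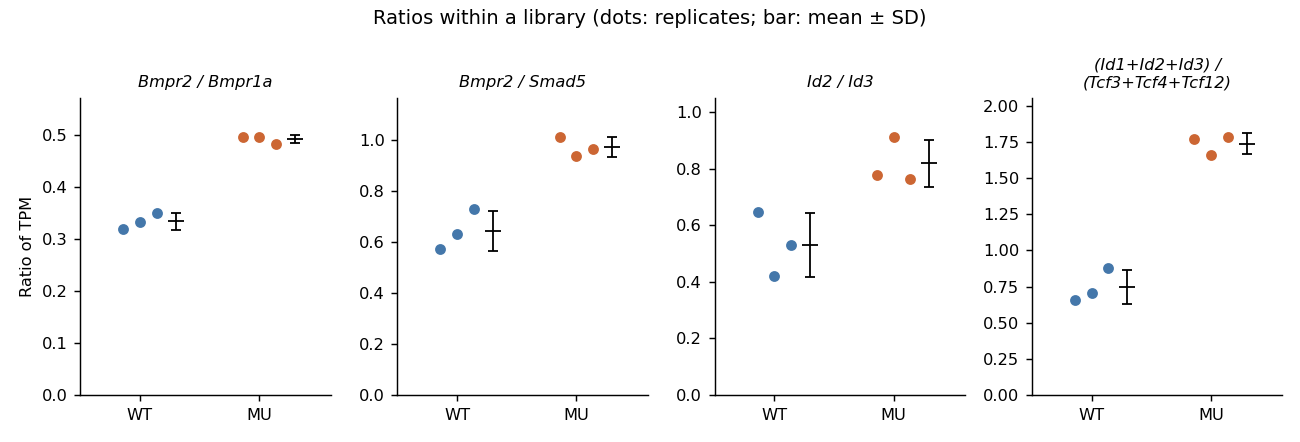
Ratio of TPM values within each library (y axis from 0, no unit) in WT (blue) and MU (orange), with the mean ± SD beside the 3 replicates. The ratio of Bmpr2 to Bmpr1a lies at 0.320 to 0.351 in WT and 0.484 to 0.498 in MU, and the ratio of summed Id to summed E-protein mRNA at 0.656 to 0.881 and 1.66 to 1.79.

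Ligand mRNA was scarce. Bmp4 (ENSMUSG00000021835.15, chromosome 14, 46383520 to 46390669, minus strand), a ligand of the BMP2/4 class, was listed at 0, 0 and 0.0395 TPM in WT and at 0.0762, 0 and 0.0494 TPM in MU. It was not tested, and no fold is given. Of the 14 BMP and GDF ligand genes listed, 13 stayed below 1 TPM in all libraries, 4 of them listed at 0 throughout. Gdf5, the 1 tested ligand, averaged 0.803 ± 0.223 TPM across WT and 0.904 ± 0.457 TPM across MU libraries (limma adjusted p = 0.908). The summed ligand level was 1.55 to 1.61 TPM in WT and 1.25 to 2.28 TPM in MU.

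Receptor mRNA was present in both groups. Bmpr1a (ENSMUSG00000021796.15, chromosome 14, 34410734 to 34503341, minus strand) encodes a type I receptor kinase. It stood at 48.1, 33.8 and 50.9 TPM in WT and at 42.2, 37.3 and 33.5 TPM in MU, and the groups overlapped through WT replicate 2. The log2 difference was −0.21 (95% interval −0.62 to 0.20, limma adjusted p = 0.447). Bmpr2 (ENSMUSG00000067336.6, chromosome 1, 59763400 to 59879014, plus strand) encodes the type II receptor dedicated to BMPs. Its levels were 15.4, 11.2 and 17.9 TPM in WT and 21, 18.6 and 16.2 TPM in MU, again overlapping. The log2 difference was 0.32 (95% interval −0.11 to 0.76, limma adjusted p = 0.271). Neither size was stable to single libraries: Bmpr2 was 0.15 without WT replicate 2, and Bmpr1a was −0.39 without WT replicate 2, −0.10 without WT replicate 3 and −0.13 without MU replicate 3. After centring on neighbouring genes Bmpr1a was −0.08 and Bmpr2 0.12, and neither gene passed in any of these fits.

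WT replicate 2 was the lowest WT library for Bmpr1a, Bmpr2, Smad1 and Smad5, so a ratio taken within a library varied less than the levels. Bmpr2 over Bmpr1a was 0.320, 0.332 and 0.351 in WT and 0.497, 0.498 and 0.484 in MU, with no overlap (log2 difference 0.56, exact permutation p = 0.1, 0.117 adjusted). Bmpr2 over Smad5 was 0.574, 0.629 and 0.728 in WT and 1.01, 0.939 and 0.964 in MU (the same p-values). These 7 ratios were chosen after the levels were seen. The 40 nearest tested protein-coding genes had a median log2 difference of 0.15 around Bmpr2 and −0.19 around Bmpr1a.

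Of the 9 tested receptor and co-receptor genes, 1 fell and 0 rose, near the 11.6% and 7.12% of all tested genes. None rose at an unadjusted p under 0.05 in limma, while the authors' deposited table has Bmpr2 higher at an unadjusted p of 0.0233. The median log2 difference was −0.17 beside −0.05 over all tested genes. The gene that fell was Rgma, which encodes a BMP co-receptor, from 34.2 ± 4.31 to 23.2 ± 2.01 TPM (log2 difference −0.54, SE 0.12, limma adjusted p = 0.0279). It did not pass without WT replicate 1 (0.0905, limma) or without MU replicate 1, 2 or 3 (0.0955, 0.109 and 0.0617). Rgmb, a related co-receptor gene, did not pass (−0.40, limma adjusted p = 0.0621) but is lower in the authors' deposited table (adjusted p = 0.0365). The type I receptor gene Acvr1 was at 20.9 ± 0.937 and 18.2 ± 1.0 TPM (adjusted p = 0.2, limma). Acvr2a was at 6.23 ± 1.0 and 6.08 ± 0.327 TPM (0.937), while Bmpr1b stayed at or below 0.02 TPM.

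Smad1 (ENSMUSG00000031681.16, chromosome 8, 79338395 to 79399518, minus strand) and Smad5 (ENSMUSG00000021540.16, chromosome 13, 56703010 to 56742377, plus strand) encode the transducers that BMP receptors phosphorylate. Smad1 was at 27.6, 21.3 and 24.8 TPM in WT and 17.6, 19.6 and 16.8 TPM in MU. All MU values lay below all WT values, WT replicate 2 being the nearest. The log2 difference was −0.42 (SE 0.12, 95% interval −0.72 to −0.13) and did not pass (limma adjusted p = 0.0571). Smad1 did pass when WT replicate 2 was left out (−0.52, limma adjusted p = 0.0217) and with a TPM minimum of 5 (0.0474), and the authors' deposited table gives −0.38 with an adjusted p of 0.0316.

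Most genes near Smad1 were also lower. Of its 40 nearest tested protein-coding genes 82.5% had a lower mean log2 value in MU, with a median of −0.36, and on chromosome 8 this held for 80.4% of 622 genes. Over the autosomes and X this share ran from 38.9% (chromosome 10) to 82.5% (chromosome 18, which holds Smad4). The neighbours' median was subtracted and the median of all tested genes (−0.05) added back. The difference of Smad1 was then −0.12 (limma adjusted p = 0.578). Smad5 stood at 26.8, 17.9 and 24.5 TPM in WT and at 20.7, 19.8 and 16.8 TPM in MU, with overlapping groups (log2 difference −0.25, 95% interval −0.65 to 0.16, limma adjusted p = 0.361). The difference of Smad5 was −0.41 without WT replicate 2, −0.13 without WT replicate 1 and −0.16 without MU replicate 3, and it passed in none of these fits. Smad9, the third transducer gene of this class, was at 1.08 to 1.44 TPM throughout (adjusted p = 0.743, limma). Smad4, the shared partner, averaged 66.6 ± 9.43 TPM across WT and 50.9 ± 1.90 TPM across MU libraries (log2 difference −0.37, adjusted p = 0.0775, limma). It passes as lower in the authors' deposited table (adjusted p = 0.0457). Of the 40 nearest tested protein-coding genes of Smad4, 87.5% were lower in MU, with a median log2 difference of −0.35.

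**Figure D3:**
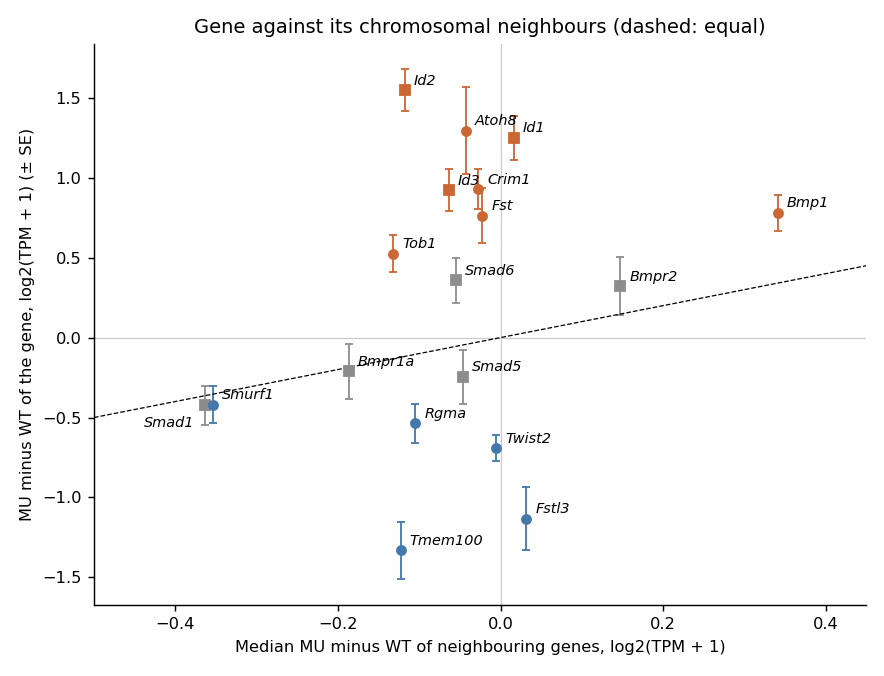
MU minus WT on the log2(TPM + 1) scale of each gene (y axis, ± SE) against the median of its nearest tested protein-coding genes, up to 20 on each side (x axis), for the 8 tested members (squares) and the other called pathway genes (circles), in orange where higher, blue where lower and grey where not called. Bmpr1a, Smad1 and Smurf1 lie near the dashed line of equality, at neighbour medians of −0.19, −0.36 and −0.35. Id1, Id2 and Id3 lie far above the line.

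Smad6 (ENSMUSG00000036867.7, chromosome 9, 63953076 to 64022059, minus strand) encodes an inhibitory SMAD that BMP signalling itself induces. Its levels were low, at 2.96, 2.85 and 2.76 TPM in WT and 4.00, 3.49 and 4.37 TPM in MU. All MU libraries lay above all WT libraries. The log2 difference of 0.36 (SE 0.14, 95% interval 0.02 to 0.70) did not pass (limma adjusted p = 0.133), and it did not pass in the authors' deposited table (0.48, adjusted p = 0.0894). Smad7, another inhibitory SMAD, was at 14.7 ± 4.88 and 10.6 ± 0.620 TPM (log2 difference −0.40, adjusted p = 0.24, limma). The genes nearest to Smad7 had a median log2 difference of −0.36.

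Of the 14 tested transducers and intracellular inhibitors, 1 rose and 1 fell (median log2 difference −0.11), near the 7.12% and 11.6% of all tested genes. Tob1, an antiproliferative protein that binds receptor-regulated SMADs, rose from 15.1 ± 1.62 to 22.2 ± 1.76 TPM (log2 difference 0.53, limma adjusted p = 0.0235). Smurf1, a ubiquitin ligase that targets SMAD1 and SMAD5, fell from 26.5 ± 3.33 to 19.5 ± 1.07 TPM (−0.42, adjusted p = 0.0474, limma). Its neighbours had a median of −0.35, and centring on them left −0.12 (adjusted p = 0.528, limma). Smurf1 also did not pass without WT replicate 1 or 3 (0.072 and 0.063, limma) or MU replicate 1, 2 or 3 (0.158, 0.143 and 0.106), nor with any of 3 other scalings (0.0661 to 0.0995). Tob1 did not pass without WT replicate 3 (0.0507, limma) or MU replicate 1, 2 or 3 (0.0968, 0.0926 and 0.0554).

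Grem1 (ENSMUSG00000074934.3, chromosome 2, 113746164 to 113758646, minus strand) encodes gremlin 1, a secreted protein that binds BMP2 and BMP4. It was listed at 0.0570, 0 and 0.0768 TPM in WT and at 0, 0.0570 and 0 TPM in MU, and was not tested.

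Of the 19 secreted antagonists and modulators described here, 10 were tested, 3 rose and 1 fell. Of all tested genes 7.12% rose and 11.6% fell. The median log2 difference of the 10 was −0.0022. Fstl3, which binds activins and some BMPs, fell from 17.8 ± 4.45 to 7.41 ± 0.755 TPM (log2 difference −1.13, SE 0.20, limma adjusted p = 0.0115). Fst, encoding follistatin, was low and rose from 1.46 ± 0.268 to 3.16 ± 0.358 TPM (0.76, adjusted p = 0.0265, limma). Crim1, a transmembrane protein that binds BMPs, rose from 24.9 ± 3.13 to 48.2 ± 4.78 TPM (0.93, adjusted p = 0.00493, limma). Bmp1, which despite its name encodes a metalloprotease that cleaves procollagens and the BMP antagonist chordin, rose from 19.9 ± 2.75 to 34.7 ± 0.136 TPM (0.78, adjusted p = 0.00593, limma).

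The members of this list thus moved in both directions, while Fstl1, at 135 ± 9.15 and 136 ± 1.05 TPM, did not pass (log2 difference 0.01, 95% interval −0.18 to 0.21, limma adjusted p = 0.932). Nog and Sost were listed at 0 in all libraries. Bmp1 did not pass after centring on its neighbours, which had a median of 0.34 (0.39, limma adjusted p = 0.0686). Fst did not pass without WT replicate 1 (0.075, limma) or MU replicate 1, 2 or 3 (0.0971, 0.0721 and 0.101), and Fstl3 did not without MU replicate 1 (0.0503). Crim1 overlaps Fez2, a gene of the opposite strand. Fez2 was at 36.5, 31.4 and 37.8 TPM in WT and at 44.1, 49.3 and 46.6 TPM in MU. Acvr2a likewise overlaps Orc4 (41.0 to 75.7 TPM) and Runx2 overlaps Supt3 (19.7 to 32.5 TPM), both on the opposite strand. Whether strand was used in counting is not stated.

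Besides Id1, Id2 and Id3, 5 listed BMP targets were tested, of which 1 rose and 1 fell. Of all tested genes 7.12% rose and 11.6% fell. The median log2 difference of the 5 was 0.13, and 0.67 with the 3 Id genes. Atoh8, a helix-loop-helix factor induced by BMPs in several cell types, was at 3.72, 4.34 and 1.83 TPM in WT and 7.65, 8.76 and 11.5 TPM in MU (log2 difference 1.30, SE 0.27, limma adjusted p = 0.0209). Tmem100, a membrane protein induced by BMP9 and BMP10 signalling in endothelium, went the other way, from 2.29 ± 0.196 to 0.305 ± 0.0197 TPM (−1.33, SE 0.18, adjusted p = 0.00493, limma). The mRNAs of Msx1, Msx2, Dlx5 and Alpl were below 0.1 TPM or listed at 0. Those of Runx2, Dlx2 and Hes1 did not pass (adjusted p = 0.581, 0.696 and 0.172, limma). Atoh8 did not pass without WT replicate 1 (0.0552, limma) or MU replicate 1, 2 or 3 (0.0518, 0.071 and 0.0779).

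**Figure D4:**
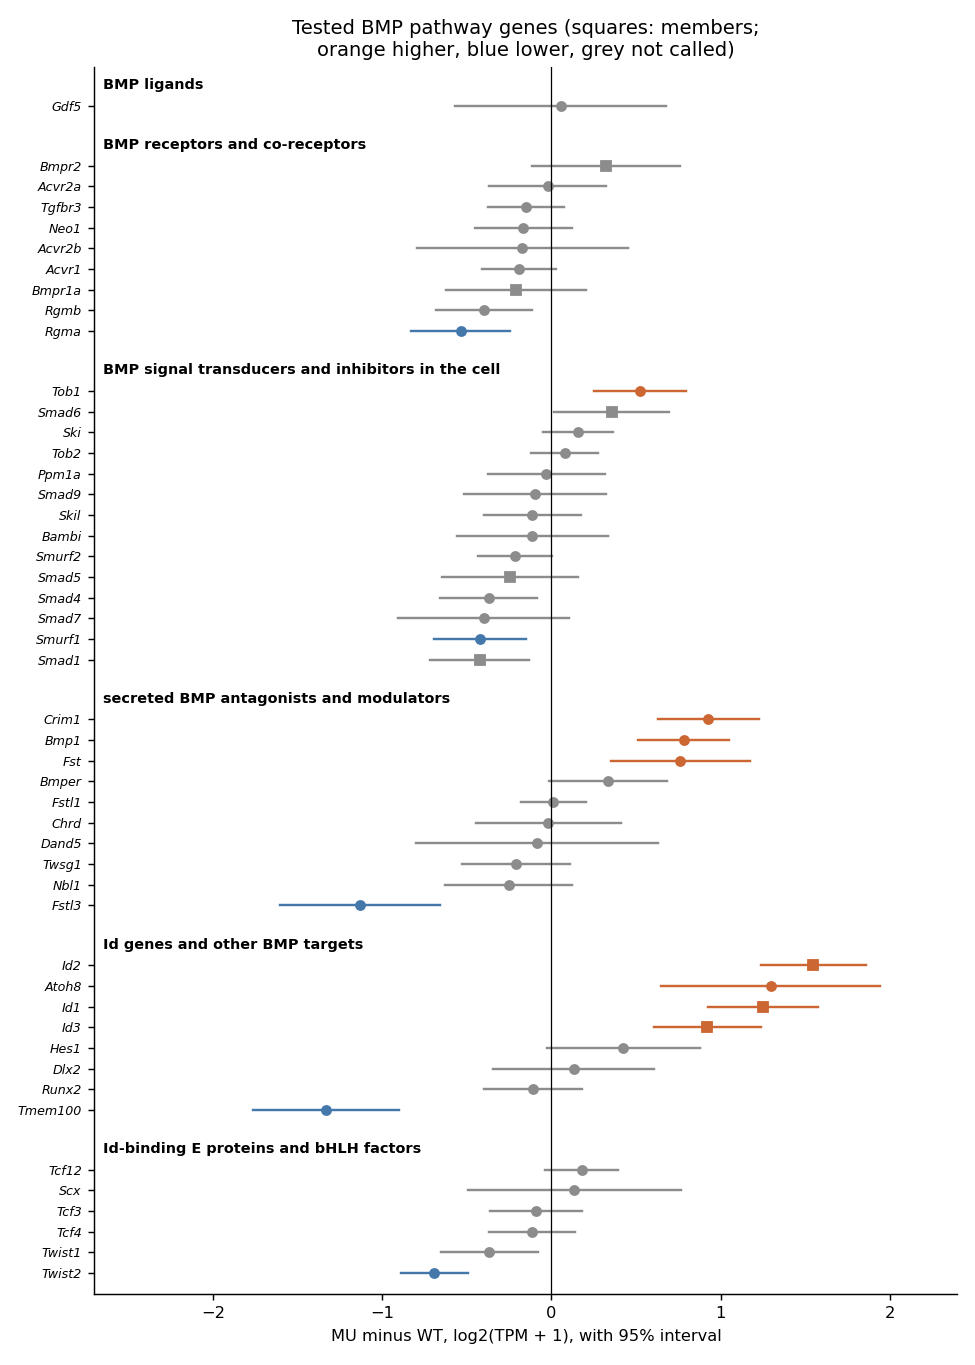
MU minus WT on the log2(TPM + 1) scale (x axis) with its 95% interval for the 48 tested genes of the BMP pathway lists, grouped by role, with the 8 tested members as squares, genes called higher in orange, called lower in blue and not called in grey. Of the 13 called genes, 9 are secreted modulators or target genes, and the intervals of Bmpr1a, Bmpr2 and Smad5 include 0.

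Over all 86 listed pathway genes, 48 were tested, 8 rose and 5 fell, with a median log2 difference of −0.09 beside −0.05 over all tested genes. This is 13 calls among 48, where 18.8% of all tested genes passed. The count was 7 without MU replicate 1, 8 without MU replicate 2 or 3, 9 without WT replicate 1 and 17 without WT replicate 2.

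Among 11357 other tested protein-coding genes, those whose pattern over the 6 libraries lay closest to that of Id2 were Amotl2, Trim7, Cdsn, Grb10 and Cyp3a41a. Closeness was measured as the Euclidean distance between gene-centred log2(TPM + 1) values, which was 0.19 to 0.31 for these genes. Amotl2, a junction-associated angiomotin, averaged 95.8 ± 11.2 TPM across WT and 261 ± 4.75 TPM across MU libraries, and Grb10, an adaptor of growth factor receptors, averaged 147 ± 19.2 and 372 ± 9.52 TPM. The value of Cyp3a41a is uncertain because near-identical Cyp3a genes could share its reads. Id1 and Id3 ranked 146th and 213th in this order, at distances of 0.78 and 0.90. The values were centred but not scaled. The smaller log2 differences of Id1 and Id3 (1.25 and 0.92 against 1.55 for Id2) therefore add to these distances.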

How the data were processed

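The authors deposited log2(TPM + 1) per gene and library and, in a second table, mean TPM, log2 fold changes and p-values from DESeq2, per the file headers. The submitters' processing notes list DESeq2 1.20.0, featureCounts 1.5.0-p3, HISAT2 2.05.0, FastQC 0.11.4 and the build mm10. Which role each had, the strand setting and the annotation were not stated there. Depth is unknown, so no counting interval was computed.

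The 14209 genes that reached a TPM of 1 in 3 or more of the 6 libraries were tested as log2(TPM + 1) with limma 3.58.1 in R 4.3.3 (intensity trend, two-sided, no covariate, Benjamini-Hochberg adjustment, calls under 0.05). This scale understates changes of low genes. The values used here are not counts, so no count test was run on them. Whether replicates came from separate cultures is not labelled, and a p-value then reflects the spread of these samples, which may be technical. Positions came from GENCODE M21 (GRCm38, the assembly of mm10), matched by identifier for 55141 genes. Members and lists were chosen with earlier results of these data known. 1 gene of the lists is not reported here and enters none of their counts. Named are all members, all other called genes of each pathway list (at most 6 a list), the 5 genes closest to the member with the largest called difference, and uncalled list genes chosen after their values were seen. The test was also run on simulated data, built from the means and spreads of the real genes. There it recovered 7.58% of 66 changes of 0.5 on the log2 scale. For changes of 1 and of 2 it recovered 59.7% and 80.6% of 67 each, with 5 false calls. Only these genes of 14209 were changed there, while 2667 passed in these data. With so few changed genes the adjustment is stricter, so the shares recovered in these data can differ and are unknown. A gene that did not pass is still not shown to be unchanged.

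Alternatives were leaving out each library, a replicate block, other pseudocounts (0.1 and 5), a TPM minimum of 5 or none, scaling by quantiles, by median of ratios or without mtDNA genes, limma without trend or robust, and centring on up to 20 neighbouring genes on each side. Centring subtracted the median difference of the neighbours from the MU values and added back the median difference of all tested genes. A GC and length correction (loess, span 0.3) was added after seeing the data.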

Additional observations from a re-analysis of the deposited data

How the results depend on the processing

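Id1, Id2 and Id3 passed as higher under all 18 alternatives, with log2 differences of 1.16 to 1.39, 1.41 to 1.65 and 0.81 to 1.06 and adjusted p (limma) of at most 0.0217, 0.0114 and 0.0323. Bmpr1a, Bmpr2, Smad5 and Smad6 passed under none of theirs, and Smad1 passed under 2 (without WT replicate 2 and with a TPM minimum of 5). No tested member or called pathway gene changed direction. Deviations from the group mean had correlations of −0.07 to 0.05 between same-numbered libraries of WT and MU. Between differently numbered ones they were −0.14 to 0.12. These correlations cannot show whether the numbers pair the samples. With the replicate block 3 members, 8 pathway genes and 1093 of all tested genes passed, against 3, 13 and 2667 without it. Leaving out 1 library gave 7 (without MU replicate 1) to 17 (without WT replicate 2) pathway genes and 8 without MU replicate 2 or 3. Of all tested genes 1071 (without MU replicate 2) to 3391 (without WT replicate 2) passed, and the count was 1430 when WT replicate 1 was left out, 1158 for MU replicate 1 and 1203 for MU replicate 3. The share of all calls that were higher was 37.9%, against 48.5% after rescaling without mtDNA genes, 48.8% after quantile normalization and 46.2% after median-of-ratios scaling. Smurf1 lost its call under 12 alternatives, Rgma, Fst and Atoh8 under 6 each, Tob1 under 5, and Fstl3 and Bmp1 under 1 each. The cause of these changes was not tested. Depth is unknown, so what it limits could not be computed. No count test was run here, because the values are TPM.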
